A study of Mus musculus with 8 samples.

Results

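CC chemokines are small secreted proteins that draw leukocytes along a gradient, and they take their name from a pair of adjacent cysteines near the start of the mature protein. They act through G protein-coupled receptors of the Ccr family. In the brain, microglia, border macrophages and activated astrocytes can make them, and invading monocytes and lymphocytes both make them and respond to them. The genes described here are Ccl2, Ccl3, Ccl4, Ccl5, Ccl6, Ccl7, Ccl8, Ccl9 and Ccl12, which were chosen by their symbols, 9 of the 54752 genes counted. Their transcripts were compared in cortex between 4 sham mice and 4 mice with bilateral carotid artery stenosis (BCAS), in which a microcoil narrows each common carotid artery.

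All 8 mice were male C57BL/6 mice of the WT genotype, 14 weeks old in the sample list of the study. Each library held the right cerebral cortex of a single animal, collected at 3 weeks. That cortex lay on the side of the narrower coil, and sham mice underwent the operation without coils. The data are read pairs counted on the exons of each gene, with 16759364 to 21794435 counts per library. Levels are given as CPM, the count scaled to the size of its library, as mean ± SD over 4 mice. A level of 3 counts corresponded to 0.178 CPM on average in the sham libraries, and limits and intervals of this kind cover counting error only. The markers of cortical excitatory neurons were all detected, with Slc17a7, the vesicular glutamate transporter of these cells, at 1630 CPM in sham mice. Sham mouse 3 stood apart by the choroid plexus gene Ttr, at 696 CPM against 7.72 to 34.2 CPM in the other sham mice. BCAS mouse 4 stood apart by its striatal markers, which summed to 598 CPM against 284 to 295 CPM in the other BCAS mice and 218 to 378 CPM in sham mice, and hemoglobin genes summed to 56.7 to 76.7 CPM in sham and 90.6 to 119 CPM in BCAS mice.

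The 9 genes lie in a pair of clusters on chromosome 11 (mm10). The first, at chr11:82035571-82305690, spans 270.1 kb and holds Ccl2, Ccl7, Ccl12 and Ccl8 together with Ccl11 and Ccl1. The second, at chr11:83525778-83664683, spans 138.9 kb and holds Ccl5, Ccl9, Ccl6, Ccl3 and Ccl4. A gap of 1220.0 kb separates them. No exon base of the 9 genes is shared with another annotated gene (0.0%). The coding sequences of the 36 pairs of genes were 60.5% to 72.1% identical over their aligned bases, with Ccl2 and Ccl7 the closest and Ccl3 and Ccl4 next at 71.1%. The longest stretch shared by transcripts of different members was 25 bases, between Ccl6 and Ccl9. Outside the family, transcripts of 90 other genes share runs of at least 50 bases with the Ccl9 transcript, on either strand, and none was found for the other 8 genes by a search certain to find runs of 99 bases or more. The recorded counting call had no option to count reads placed at several sites, and what this does to the counts of Ccl9 was not tested.

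The window of coding sequence around the adjacent cysteines is shown for each gene because it is the feature that defines the family, with the 6 bases of the cysteine codons in capitals and 10 codons on each side in lower case (GENCODE vM21 transcripts, 5′ to 3′ on the coding strand).
Ccl3: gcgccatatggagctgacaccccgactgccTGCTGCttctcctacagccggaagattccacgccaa
Ccl4: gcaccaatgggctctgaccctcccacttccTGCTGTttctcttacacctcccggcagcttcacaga
Ccl5: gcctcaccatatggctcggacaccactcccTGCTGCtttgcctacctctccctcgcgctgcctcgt
Ccl6: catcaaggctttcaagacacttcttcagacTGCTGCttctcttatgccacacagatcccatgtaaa
Ccl9: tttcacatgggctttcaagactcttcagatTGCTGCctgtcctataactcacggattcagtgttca
Ccl2: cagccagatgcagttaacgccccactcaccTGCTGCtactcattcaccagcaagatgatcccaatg
Ccl7: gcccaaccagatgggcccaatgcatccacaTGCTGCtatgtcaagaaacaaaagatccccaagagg
Ccl12: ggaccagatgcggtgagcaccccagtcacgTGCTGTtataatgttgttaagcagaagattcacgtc
Ccl8: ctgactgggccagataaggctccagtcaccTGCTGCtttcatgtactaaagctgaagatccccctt
The cysteine codons lie in exon 2 of each of these transcripts except Ccl6 and Ccl9, where they lie in exon 3. In the second cluster they are at chr11:83648652-83648657 in Ccl3, chr11:83663482-83663487 in Ccl4, chr11:83529242-83529247 in Ccl5, chr11:83589386-83589391 in Ccl6 and chr11:83575926-83575931 in Ccl9. In the first cluster they are at chr11:82036506-82036511 in Ccl2, chr11:82046538-82046543 in Ccl7, chr11:82102634-82102639 in Ccl12 and chr11:82116056-82116061 in Ccl8. Each of the 9 coding sequences holds 1 such pair of cysteine codons.

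The 9 genes had few counts in sham cortex, at most 42 in a library, and 8 of them were higher in every BCAS mouse. Together they held 60 to 104 counts in a sham library, or 3.62 to 5.91 CPM, and 841 to 4792 counts in a BCAS library, or 43.3 to 211 CPM. In these 8 genes every BCAS mouse lay above every sham mouse, whereas 18.5% of all tested genes had such a separation in this direction. Ccl7 was the exception. The comparison was tested with edgeR's quasi-likelihood test over 17136 genes, and a gene counted as called when its Benjamini-Hochberg adjusted p was under 0.05 and its log2 fold change was above 1 or below -1. Of all tested genes, 11.0% were called higher and 1.28% lower. The test covered 7 of the 9 genes, since Ccl7 and Ccl8 had too few counts, and these 7 were called higher, with a median log2 fold change of 5.01 beside -0.01 over all tested genes. Only Ccl6 and Ccl9 had at least 10 counts in every sham library. The other 5 entered the test through the BCAS libraries alone, so that the count of 7 describes them and is no measure of how often such genes rise. In bulk tissue, more cells of a type and more RNA per cell cannot be told apart.

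**Figure D1:**
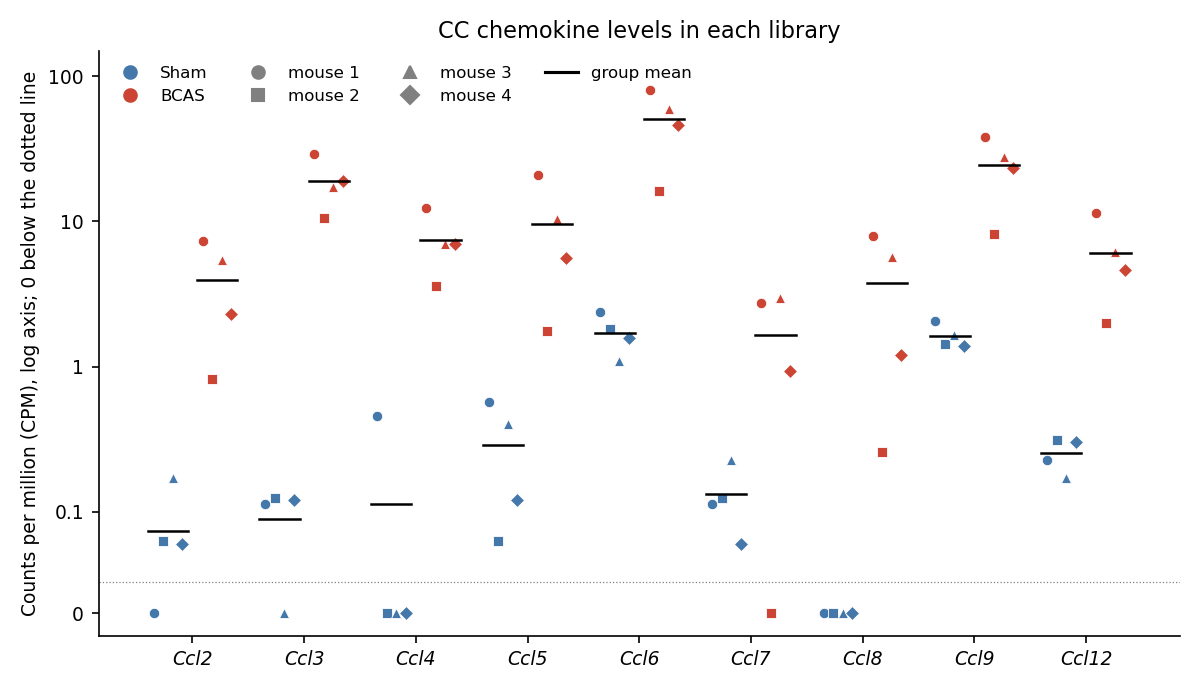
CPM of the 9 CC chemokines in each of the 8 libraries on a logarithmic axis, with sham mice in blue, BCAS mice in red, 1 symbol per mouse and a line at each group mean above 0. Values of 0 are drawn below the dotted line. All BCAS values lie above the sham values of the same gene except for Ccl7, which was at 0 in BCAS mouse 2.

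Ccl3 and Ccl4, the macrophage inflammatory proteins, which attract monocytes and lymphocytes, were detected at 0 to 8 counts in sham libraries and rose in every BCAS mouse. Ccl3 had 2, 2, 0 and 2 counts in the sham animals 1 to 4 and 664, 204, 319 and 349 counts in BCAS mice 1 to 4. Even the lowest BCAS mouse was thus far above the sham libraries. The BCAS level was 19.0 ± 7.73 CPM, which is 107 times the level of 3 counts per sham library. The ratio of the pooled counts, each divided by the pooled library size of its group, was 219, with a 95% counting interval of 100 to 598 (exact binomial), and the log2 fold change was 7.64 (SE 0.51, edgeR adjusted p = 0.000876), the largest of the 7 fitted members. Ccl4 had 8 counts in sham mouse 1 and 0 in the other sham mice, and 281, 70, 130 and 129 counts in BCAS mice 1 to 4. Its BCAS level was 7.50 ± 3.61 CPM against 0.114 ± 0.227 CPM in sham libraries, a ratio of 66.0, and the log2 fold change was 5.92 (SE 0.84, edgeR adjusted p = 0.00280). The size of the Ccl4 difference rests on sham mouse 1. Without it all sham counts are 0 and the fitted log2 fold change is 10.11 (edgeR adjusted p = 0.0137), which then depends on the prior count. The BCAS mean was 42.2 times the level of 3 counts averaged over all 4 sham libraries.

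Ccl5, which is made in quantity by T and natural killer cells, rose with a much wider spread among the BCAS mice. It had 10, 1, 7 and 2 counts in the sham animals 1 to 4 and 478, 34, 191 and 102 counts in BCAS mice 1 to 4. The lowest BCAS mouse had 34 counts and the highest sham mouse 10, so the groups did not overlap. The level was 0.288 ± 0.238 CPM in sham and 9.66 ± 8.34 CPM after BCAS. The log2 fold change was 5.01 (SE 0.86, edgeR adjusted p = 0.00527). Leaving out BCAS mouse 1 lowered it to 4.31 (edgeR adjusted p = 0.00360).

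Ccl6 and Ccl9, rodent chemokines that signal through Ccr1, were the members with the highest counts in sham cortex and are the best measured of the 9. Ccl6 had 42, 29, 19 and 26 counts in the sham animals 1 to 4 and 1831, 315, 1095 and 854 counts in BCAS mice 1 to 4. Ccl9 had 36, 23, 29 and 23 counts in sham mice and 865, 158, 514 and 428 counts in BCAS mice. In both genes BCAS mouse 2 was lowest and BCAS mouse 1 highest, and the groups were widely separated. Ccl6 rose from 1.71 ± 0.540 to 50.6 ± 26.9 CPM, a log2 fold change of 4.88 (SE 0.50, edgeR adjusted p = 0.00146). Ccl9 rose from 1.63 ± 0.300 to 24.3 ± 12.4 CPM, a log2 fold change of 3.89 (SE 0.45, edgeR adjusted p = 0.00181), the smallest of the 7 fitted members.

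The monocyte chemoattractant group comprises Ccl2, Ccl7 and Ccl12, which are ligands of the monocyte receptor Ccr2, and Ccl8, which in the mouse acts on Ccr8. Ccl12 had 4, 5, 3 and 5 counts in the sham animals 1 to 4 and 261, 39, 114 and 85 counts in BCAS mice 1 to 4. It rose from 0.253 ± 0.0662 to 6.07 ± 3.99 CPM, a log2 fold change of 4.56 (SE 0.58, edgeR adjusted p = 0.00212). Ccl2 had 0, 1, 3 and 1 counts in sham mice and 168, 16, 100 and 42 counts in BCAS mice. All BCAS mice again lay above the sham mice, although BCAS mouse 2 had few counts. The BCAS level of Ccl2 was 3.97 ± 2.97 CPM, which is 22.4 times the level of 3 counts per sham library. The ratio of its pooled counts, divided by library size in the same way, was 55.8, with a 95% counting interval of 23.7 to 173, and its log2 fold change was 5.63 (SE 0.90, edgeR adjusted p = 0.00410). Without sham mouse 3 the log2 fold change of Ccl2 was 6.41 (edgeR adjusted p = 0.0139).

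Ccl8 was at 0 counts in all 4 sham libraries and had 182, 5, 106 and 22 counts in BCAS mice 1 to 4. It was too sparse for the filter of the test, which asks for about 10 counts in 4 libraries. The BCAS level was 3.80 ± 3.68 CPM, at least 21.4-fold higher than sham against a floor of 3 counts in each sham library. The groups did not overlap, and the difference in mean log2(CPM + 0.5) was 2.52 (exact two-sided permutation test, p = 0.0286, the smallest p that the 70 arrangements of 8 libraries allow). This difference was 3.16 without BCAS mouse 2 and 4.44 with a pseudocount of 0.1 CPM, and a fit without the filter gave a log2 fold change of 9.12 (edgeR adjusted p = 0.00533), which against sham counts of 0 depends on the prior count. Ccl7 had 2, 2, 4 and 1 counts in sham mice and 62, 0, 55 and 17 counts in BCAS mice. BCAS mouse 2 was thus below every sham mouse while the other BCAS mice were above them. The level was 0.132 ± 0.0705 CPM in sham and 1.66 ± 1.43 CPM in BCAS mice, a ratio of 12.6. The difference in mean log2(CPM + 0.5) of 1.42 did not pass the test (exact two-sided permutation test, p = 0.143). It was 1.10 without BCAS mouse 1, 2.001 without BCAS mouse 2, 1.07 without BCAS mouse 3 and 2.11 with a pseudocount of 0.1 CPM. Fitted without the filter on low counts, Ccl7 had a log2 fold change of 3.57 (edgeR adjusted p = 0.0273), past both thresholds.

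Per kilobase of exon, the order of the members changed between the groups. In sham mice the mean level was highest for Ccl6, at 0.954 ± 0.301 RPKM (read pairs per kilobase of exon at the scale of CPM), followed by Ccl9 at 0.536 ± 0.0986 RPKM and Ccl12 at 0.471 ± 0.123 RPKM. Ccl6 exceeded Ccl9 in 4 of 4 sham mice, whereas Ccl9 exceeded Ccl12 in 2 of 4. The remaining sham levels ran from 0.300 RPKM for Ccl5 to 0 for Ccl8 and rest on 0 to 10 counts per library, too few to order them. In BCAS mice Ccl6 led with 28.2 ± 14.96 RPKM and Ccl3 followed with 24.8 ± 10.1 RPKM. These neighbours in the order did not differ beyond their spread, with Ccl6 above Ccl3 in 3 of 4 mice. Ccl3 exceeded the next gene, Ccl4 at 11.4 ± 5.47 RPKM, in 4 of 4 mice. Ccl4, Ccl12 at 11.3 ± 7.43 RPKM, Ccl5 at 10.1 ± 8.69 RPKM, Ccl9 at 7.98 ± 4.08 RPKM and Ccl8 at 7.43 ± 7.21 RPKM formed a middle group, in which each gene exceeded the next in only 2 or 3 of 4 mice. Ccl2 at 3.49 ± 2.61 RPKM and Ccl7 at 2.07 ± 1.79 RPKM were lowest, with Ccl2 above Ccl7 in 4 of 4 mice. No test was made of this order.

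The members differed in how evenly the BCAS mice responded. The highest BCAS level was 2.78 times the lowest for Ccl3 and 3.43 times for Ccl4. For Ccl9, Ccl6 and Ccl12 it was 4.67, 4.96 and 5.71 times. For Ccl2, Ccl5 and Ccl8 it was 8.96, 11.998 and 31.1 times, and for Ccl7 the lowest BCAS mouse was at 0. BCAS mouse 2 was the lowest for each of the 9 genes, and BCAS mouse 1 was the highest for each except Ccl7, where BCAS mouse 3 was higher. BCAS mouse 3 lay above BCAS mouse 4 for 7 of the members, below it for Ccl3, and level with it for Ccl4, at 7.02 and 7.03 CPM. In BCAS mouse 2, Ccl3 was still 10.51 CPM, whereas Ccl8 was 0.258 CPM.

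**Figure D2:**
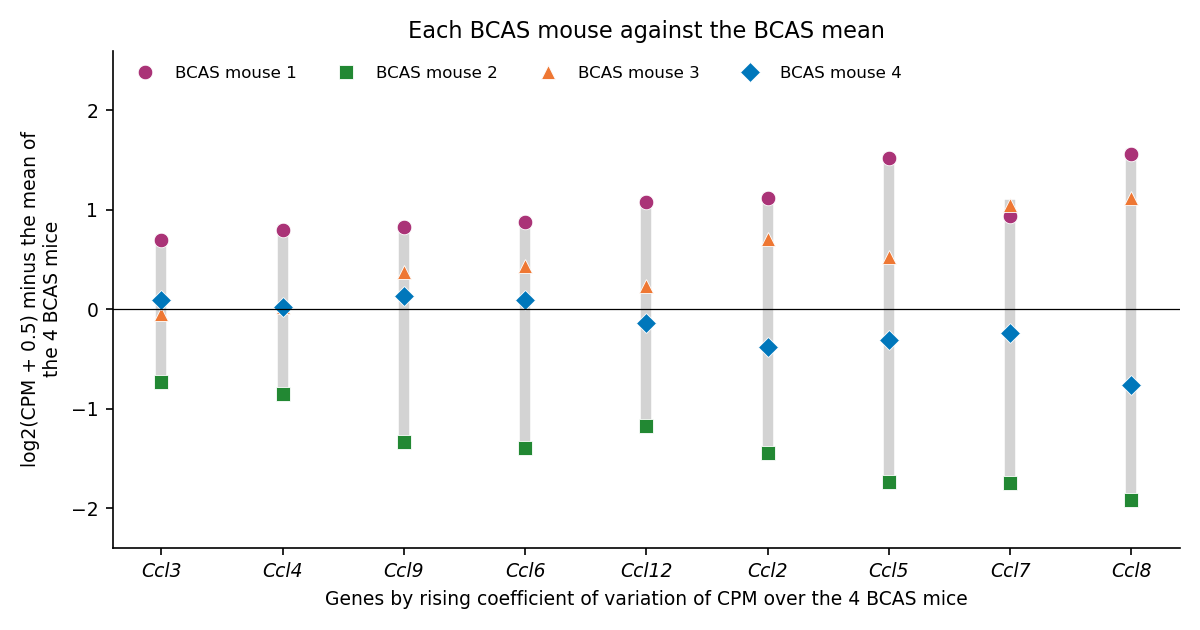
Level of each CC chemokine in the 4 BCAS mice as log2(CPM + 0.5) minus the mean of the 4, with genes ordered by the coefficient of variation of their CPM, from 40.7% for Ccl3 to 97.0% for Ccl8. The grey bar spans the 4 mice. The distance between BCAS mice 1 and 2 is smallest for Ccl3 and largest for Ccl8.

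Within a BCAS mouse, some members kept a nearly fixed ratio. Among the 28 pairs of members detected in all BCAS mice, the ratio varied least for Ccl6 to Ccl9, which are adjacent CC chemokine genes of the second cluster. It was 2.12, 1.99, 2.13 and 1.995 in BCAS mice 1 to 4 (2.06 ± 0.0747), while the CPM of the genes spanned 4.96-fold and 4.67-fold. In sham mice the same ratio was 1.17, 1.26, 0.655 and 1.13. The change in this ratio was 0.99 on the log2(CPM + 0.5) scale (exact two-sided permutation test, p = 0.0286, adjusted over the 36 pairs 0.0571). The next pair was Ccl3 to Ccl4, also adjacent, with ratios of 2.36, 2.91, 2.45 and 2.71 (2.61 ± 0.2497). At the other end, the ratio of Ccl3 to Ccl8 was 3.65, 40.8, 3.01 and 15.9 in BCAS mice 1 to 4. These ratios are descriptions, since the members share libraries and the mice differ in the size of the whole response.

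Whether one member changed more than another was tested for all 36 pairs on the log2 ratio within each library. None had an adjusted p under 0.05, whereas 18 had an unadjusted exact permutation p of 0.0286, which the adjustment over 36 pairs turns into 0.0571, the lowest value here. With 0.5 CPM added and sham counts near 0, the change in a ratio follows mostly the BCAS levels for pairs that hold a gene other than Ccl6 and Ccl9, and does not show which of the genes changed more.

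The make-up of the CC chemokine transcripts was described by the share of each member in their summed RPKM. Ccl3 held 3.71%, 6.52%, 0% and 6.84% of the sum in the sham animals 1 to 4 and 20.8%, 36.4%, 19.2% and 27.9% in BCAS mice 1 to 4. Its share was thus highest in BCAS mouse 2, the mouse with the smallest total. Ccl9 went the other way, from 19.7% ± 2.77 in sham to 7.58% ± 0.797 in BCAS mice, with no overlap. Ccl8 went from 0% to 5.53% ± 4.14 and Ccl7 from 6.34% ± 4.19 to 1.58% ± 1.31. Each of these 4 differences had an exact two-sided permutation p of 0.0286, and none of the 9 members had a p under 0.05 after adjustment over the 9 tests (lowest 0.0643). Ccl6 held 34.4% ± 6.29 in sham and 26.4% ± 2.58 in BCAS mice (exact two-sided permutation test, p = 0.0857), and its share of the summed CPM, without division by length, was 39.7% and 39.9%. On that scale Ccl7 no longer separated the groups (exact two-sided permutation test, p = 0.0857). The shares of sham mice rest on only 60 to 104 counts.

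**Figure D3:**
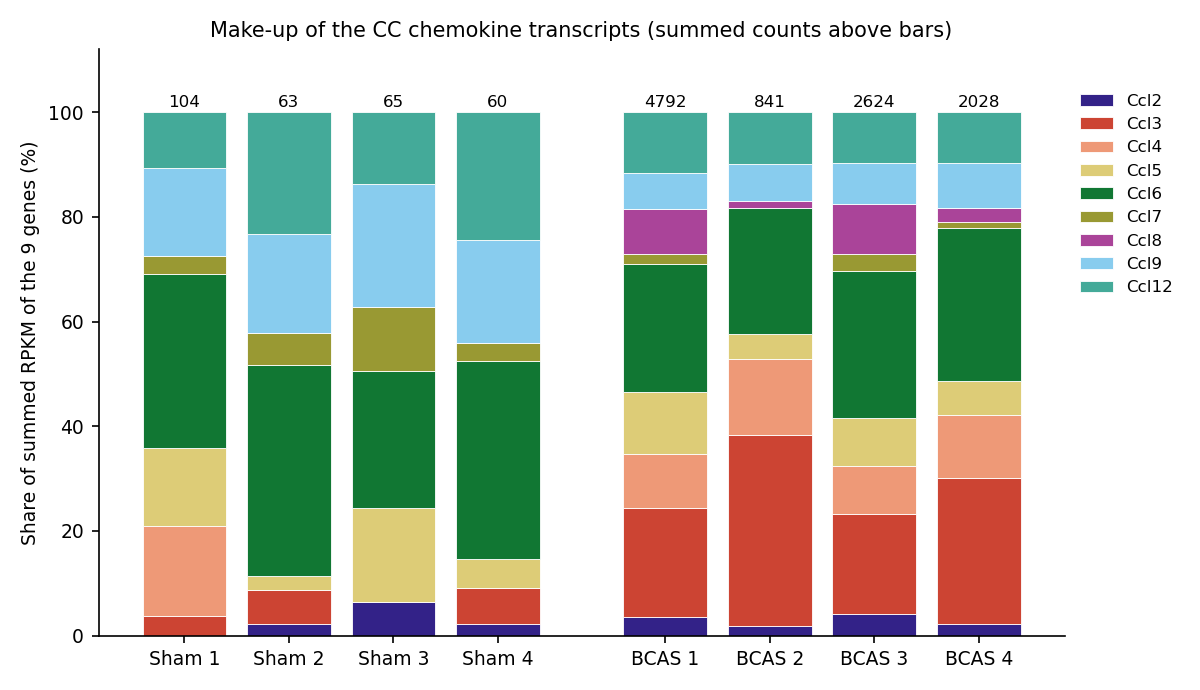
Share of each CC chemokine in the summed RPKM of the 9 genes, in percent, for each library, with the summed counts above the bars. Ccl3 and Ccl4 take larger shares and Ccl9 a smaller share in the BCAS than in the sham libraries, apart from Ccl4 in sham mouse 1, at 17.2%.

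Microglia, the resident macrophages of the brain and a known source of Ccl3, Ccl4, Ccl6 and Ccl9, had higher marker levels after BCAS. All 12 microglial markers were called higher, their summed level going from 420 to 505 CPM in sham to 1647 to 5994 CPM in BCAS mice, and the mean of their log2(CPM + 0.5) rose by 2.54. The level of each member was therefore also given relative to this mean in the same library. Ccl6 rose by 1.82 and Ccl9 by 0.83 (log2) beyond the markers, with no overlap between the groups (exact two-sided permutation test, p = 0.0286 each, adjusted over the 9 members 0.0643). With a pseudocount of 0.1 CPM the values were 2.08 and 1.07. Ccl3 rose by 2.43 and Ccl4 by 1.12 beyond the markers, with the same p, and by 4.07 and 2.94 with the smaller pseudocount. In BCAS mice 1 to 4 the distance to the markers was -3.42, -3.08, -3.12 and -3.12 for Ccl3 and -4.63, -4.50, -4.36 and -4.50 for Ccl4. Ccl12, Ccl5, Ccl2 and Ccl8 differed from the markers by 0.38, 0.77, 0.13 and -0.01, and none passed the unadjusted test (exact permutation p = 0.0571, 0.143, 0.743 and 0.971). For these genes, near 0 in sham mice, the smaller pseudocount gave 1.34, 1.83, 1.68 and 1.87, so that the sign for Ccl8 and the size for all 4 depend on it, and Ccl12 then had an exact permutation p of 0.0286. Ccl7 differed by -1.12 (exact permutation p = 0.114), or -0.45 with the smaller pseudocount.

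**Figure D4:**
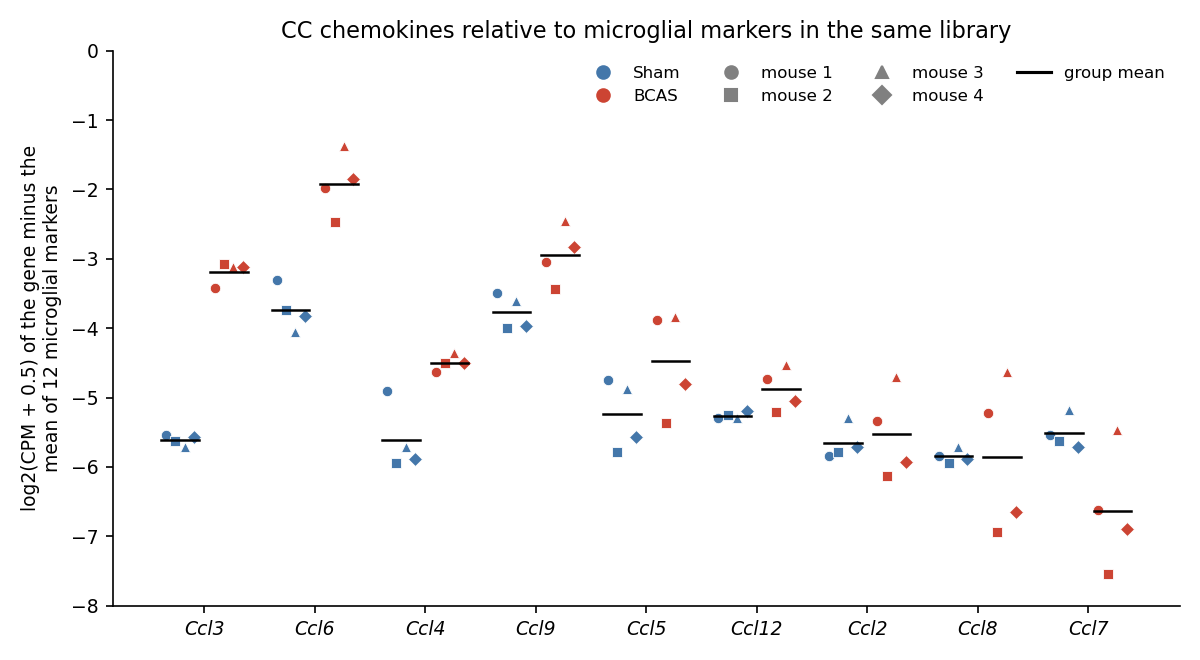
Level of each CC chemokine relative to 12 microglial markers in the same library, as log2(CPM + 0.5) of the gene minus the mean of the markers, with 1 symbol per mouse and a line at each group mean. The BCAS values of Ccl3, Ccl6, Ccl4 and Ccl9 lie above all their sham values, whereas those of Ccl2 and Ccl8 fall on both sides of them.

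Some markers of other cells also moved with the chemokines, and their part in the results was not tested. The level in BCAS mouse 1 was 2.59 to 4.05 times that in BCAS mouse 2 over the 12 microglial markers and 2.31 to 4.24 times over the 6 border macrophage markers. It was 3.42 times for Dcn to 11.8 times for Col3a1 over the 5 fibroblast markers, and 0.892 times for Slc1a2 to 3.50 times for Gfap over the 6 astrocyte markers. It ran from 1.98 times for Vcan to 68.9 times for Plac8 over the 5 monocyte markers with a value and from 1.94 times for Trbc2 to 87.0 times for Cd3d over the 10 markers of T and natural killer cells. The factors of the chemokines ran from 2.78 for Ccl3 to 31.1 for Ccl8, and Ccl7 had none, being at 0 in BCAS mouse 2. Of the 6 monocyte markers, 3 were tested and 2 called higher, and the summed level went from 96.2 to 125 CPM in sham to 152 to 529 CPM in BCAS mice, most of it from Fn1 and Vcan. Of the 10 markers of T and natural killer cells, 4 were tested and 3 called higher, with sums of 7.44 to 14.4 CPM in sham and 9.99 to 62.1 CPM in BCAS mice, and Klrb1c was at 0 in all sham libraries. The other tested marker, Trbc2, went the other way, from 9.28 CPM in sham to 5.83 CPM in BCAS mice. Its log2 fold change was -0.67 (edgeR adjusted p = 0.134). Of the 7 neutrophil markers, Csf3r alone was tested and called higher, the sums were 5.61 to 9.77 CPM in sham and 55.2 to 217 CPM in BCAS mice, most of it from Csf3r, which other myeloid cells also carry. Ly6g, the defining antigen of neutrophils, was at 0 in all 8 libraries, whereas S100a9 had 6, 1, 4 and 0 counts in sham and 92, 7, 98 and 16 counts in BCAS mice, and S100a8, Mmp8 and Cxcr2 had at most 6 counts in a sham library and up to 69, 55 and 71 counts in a BCAS library. Border macrophage markers were called higher in 4 of 6, with sums of 16.6 to 20.5 and 30.6 to 90.9 CPM, led by Mrc1. Fibroblast markers were called higher in 5 of 5, with sums of 51.7 to 73.3 and 135 to 869 CPM, led by Col1a2. Astrocyte markers were called higher in 2 of 6 (5 of 6 with an edgeR adjusted p under 0.05), with Gfap at 155 CPM in sham and 2320 CPM in BCAS mice, and endothelial markers in 0 of 6 (2 of 6 with an edgeR adjusted p under 0.05). Neuronal markers were called lower in 1 of 6 (5 of 6 lower with an edgeR adjusted p under 0.05), with sums of 7262 to 8590 CPM in sham and 2799 to 6098 CPM in BCAS mice.

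The receptors through which these ligands act were measured as the other side of the pathway. Of 10 Ccr genes, 5 were tested and 4 were called higher. Ccr2, the receptor of Ccl2, Ccl7 and Ccl12, had 6 to 21 counts in sham libraries and 922, 39, 446 and 123 counts in BCAS mice 1 to 4. Its log2 fold change was 4.65 (SE 0.94, edgeR adjusted p = 0.00910), and only limma-voom among 16 alternatives did not call it (4.07, adjusted p = 0.0942).

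Ccr1, the receptor of Ccl6 and Ccl9 and also of Ccl3 and Ccl5, had 6, 14, 1 and 9 counts in sham and 117, 12, 54 and 21 counts in BCAS mice, so the groups overlapped. Its log2 fold change of 2.45 (SE 0.77, edgeR adjusted p = 0.0405) was not called in 10 of 16 alternatives, among them leaving out any sham mouse or BCAS mouse 1, 3 or 4, where it was 1.80 to 2.95 (adjusted p = 0.0521 to 0.104). Ccr9 was called at 2.10 (edgeR adjusted p = 0.0224) on 1 to 39 counts per library, but 21.5% of its exon bases overlap other genes, and it was not called without sham mouse 2, 3 or 4 or BCAS mouse 3, at 1.75 to 2.16 (adjusted p = 0.0526 to 0.0633). Ccr8, the receptor of Ccl8, was at 0 in all sham libraries and had 4 counts in BCAS mouse 1 and 0 in the others. Among the atypical receptors, Ccrl2, which binds the chemoattractant chemerin, was called higher at 2.51 (SE 0.49, edgeR adjusted p = 0.00805). Ackr2, a scavenger that takes up and degrades inflammatory CC chemokines, was called lower. It had 100, 73, 51 and 79 counts in sham and 20, 39, 29 and 44 counts in BCAS mice, with no overlap, and a log2 fold change of -1.39 (SE 0.33, edgeR adjusted p = 0.0164). The call of Ackr2 was lost without sham mouse 1 (-1.26, adjusted p = 0.0535). Ackr1, which binds chemokines without signalling, had a log2 fold change of -0.41 (edgeR adjusted p = 0.0462), short of the fold threshold, and 25.7% of its exon bases overlap Cadm3.

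The other CC chemokines formed a list of 15 genes, of which 14 were in the tables and 5 had enough counts for the test. Of these, 1 was called higher and none lower. The former was Ccl11, the eosinophil attractant that lies between Ccl7 and Ccl12 in the first cluster. It had 0, 1, 0 and 0 counts in sham and 89, 24, 17 and 23 counts in BCAS mice, and its BCAS mean was 10.3 times the level of 3 counts per sham library (log2 fold change 6.42, SE 0.92, edgeR adjusted p = 0.00292). BCAS mouse 1 lifted this mean, at 3.91 CPM against 0.918 to 1.25 CPM in the others. All 16 alternatives called Ccl11, with log2 fold changes of 1.37 to 8.11. BCAS mouse 2 was not set apart for Ccl11, at 24 counts beside 17 and 23 in mice 3 and 4. Ccl27a, a chemokine of epithelia and the most abundant CC chemokine of sham cortex by CPM, was 61.0 ± 12.6 CPM in sham and 34.0 ± 9.86 CPM in BCAS mice (log2 fold change -0.84, SE 0.23, edgeR adjusted p = 0.0262), short of the fold threshold. Ccl25, which guides thymocytes, did not pass the test, with a log2 fold change of -0.27 on a mean of 8.34 CPM in sham and 6.92 CPM in BCAS mice. Ccl17, named here after its values were seen, had 4, 12, 14 and 8 counts in sham and 4, 0, 4 and 3 counts in BCAS mice, too few for the test. In CPM the groups did not overlap, but this rests on scaling, since 4 counts were 0.227 CPM in sham mouse 1 and 0.216 CPM in BCAS mouse 3. No p is given for a gene named in this way.

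Beyond the edges of the clusters no call was made. None of the 12 tested genes nearest to the clusters, 3 on each side of each, was called, with log2 fold changes of -0.74 for Asic2 to 1.32 for Gm11423. Of all tested genes, 11.0% were called higher and 1.28% lower, so that 12 genes without a call say little about the edges. Of the 12, 3 had an edgeR adjusted p under 0.05, namely Asic2 (0.0108), Tmem98 (0.0191, log2 fold change 0.78) and 1700020L24Rik (0.0464, log2 fold change 0.82). Within the second cluster, the only genes that are not CC chemokines were E230016K23Rik, with 3 counts over the sham and 6 over the BCAS libraries, and the pseudogene Rpl9-ps1, at 0 in all.

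**Figure D5:**
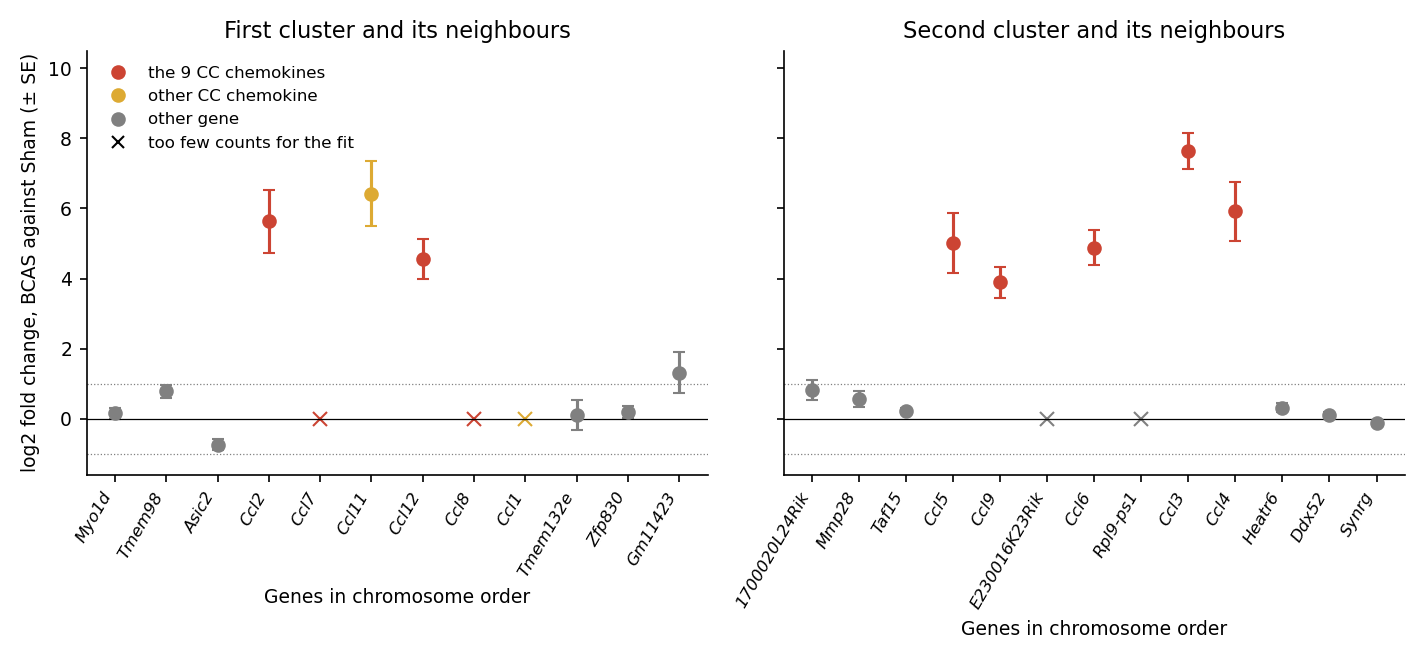
The log2 fold change of BCAS against sham mice with its SE for the genes of both chromosome 11 clusters and the 3 nearest tested genes on each side, in chromosome order, with dotted lines at 1 and -1. Crosses mark genes with too few counts for the fit, which include Ccl7 and Ccl8. Fitted CC chemokine genes lie between 3.89 and 7.64, and flanking genes between -0.74 and 1.32.

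Transcription factors and mRNA decay factors known to act on chemokine genes formed a further list of 16 genes, all tested. Of these, 13 were called higher and none lower, with a median log2 fold change of 1.67. The largest rise was that of Irf7, a transcription factor of the interferon response, at 4.10 (SE 0.58, edgeR adjusted p = 0.00280), followed by Spi1, the master factor of myeloid cells, at 3.52 (SE 0.44, edgeR adjusted p = 0.00205). Of the NF-kappaB genes, Nfkb2 rose by 2.502, Relb by 1.69, Nfkb1 by 1.66, Rel by 1.30 and the inhibitor Nfkbia by 1.07, whereas Rela had a value of 0.97 (edgeR adjusted p = 0.00681), just short of the fold threshold. Irf1 and Stat2 rose by 1.74 and 1.15, and Cebpb by 1.17. Zfp36 and Zc3h12a, which mark inflammatory transcripts for decay, rose by 2.32 and 2.57. Jun and Fos did not pass the test, at 0.22 and -0.75. The call of Nfkbia was lost without sham mouse 1 or BCAS mouse 1 or 3. It was also lost with limma-voom, limma on log2(CPM + 1) and the replicate block. That of Cebpb was lost without sham mouse 1 or BCAS mouse 3, and that of Stat2 without BCAS mouse 1. The values without a call were 0.91 to 1.09. Rela passed both thresholds without sham mouse 1 or BCAS mouse 2 or 3 and with library size alone, at 1.01 to 1.12. Other genes cover 20.7% of the exon bases of Cebpb.

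Each member in the fit was also set against the 12434 genes averaging 100 counts or more, by the root-mean-square difference of log2 CPM relative to the sham mean over the 8 libraries. The nearest genes to Ccl3 were Mpeg1, a macrophage pore protein, Cd52 and the pattern receptor Tlr2, at 0.23, 0.32 and 0.35. Those nearest to Ccl4 were Slamf9, Ctsz and Csf3r, at 0.20 to 0.25. For Ccl6 they were Cd72, Tent5c and Lag3, at 0.20 to 0.26, and for Ccl9 the endotoxin co-receptor Cd14, Plek and Gm8995, at 0.17 to 0.21. The nearest to Ccl12 were Cmklr1, Cyth4 and Unc93b1, at 0.07 to 0.09, and those nearest to Ccl5 were Gm8995, Lcp1 and Arhgap9, at 0.27 to 0.32. Ccl2 was nearest to Emp1, Tgfbi and Plin2, at 0.12 to 0.17. The measure was taken with 0.5 CPM added, which compresses the rise of genes near 0 in sham mice, such as Ccl2 and Ccl12, and so sets which genes are near them.

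Promoter sequence was found in the RefSeq table (GRCm38.p6) for 5 of the 9 genes, Ccl12, Ccl8, Ccl9, Ccl6 and Ccl3. The 250 bases before the start are shown for Ccl3 and Ccl8, the members with the smallest and the largest coefficient of variation among BCAS mice, 5′ to 3′ on the coding strand with motif matches in capitals.
Ccl3: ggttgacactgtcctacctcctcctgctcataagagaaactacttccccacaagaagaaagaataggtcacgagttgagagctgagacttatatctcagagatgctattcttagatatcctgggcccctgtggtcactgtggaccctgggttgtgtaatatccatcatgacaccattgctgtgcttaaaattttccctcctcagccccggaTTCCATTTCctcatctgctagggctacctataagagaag
Ccl8: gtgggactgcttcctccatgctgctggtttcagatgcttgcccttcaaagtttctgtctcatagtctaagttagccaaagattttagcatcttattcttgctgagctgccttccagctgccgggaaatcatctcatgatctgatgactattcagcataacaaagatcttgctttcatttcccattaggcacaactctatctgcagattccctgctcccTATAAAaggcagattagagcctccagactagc
The Ccl3 window lies at chr11:83649379-83649628 on the minus strand and the Ccl8 window at chr11:82114935-82115184 on the plus strand. Both strands were searched for the interferon-stimulated element GAAANNGAA, the gamma-activated site TTCNNNGAA, the AP-1 site TGANTCA, the C/EBP site TTGCNNAA, the PU.1 site GAGGAAGT, the NF-kappaB site and the TATA box TATAAA. The Ccl3 window holds the interferon-stimulated element on the strand opposite to the gene, 39 to 31 bases before the start. On either strand, 7.1% of the 32851 promoter windows of the table also hold it. The Ccl8 window holds a TATA box 32 to 27 bases before the start and Ccl12 one 31 to 26 bases before it. On either strand and at any place in the window, 12.4% of all windows hold this match. Ccl9 holds an AP-1 site, an NF-kappaB site and 3 matches to the TATA box, of which a pair overlap, against 6.7% and 3.9% of all windows for AP-1 and NF-kappaB. No match was found in the Ccl6 window, nor in any of the 5 for the gamma-activated site, C/EBP or PU.1. These matches describe the letters only.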

How the data were processed

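RNA-seq counts of the right cerebral cortex of 4 sham and 4 BCAS mice were used, grouped by the labels. Per the methods, the authors used Trim Galore for trimming, HISAT2 for alignment to mm10, SAMtools 1.9 for sorting and featureCounts for counting pairs on exons. The deposited values are raw counts per gene without normalization. The header of the tables names featureCounts 2.0.1, GENCODE vM20 and no option for strand or for reads placed at several sites, whereas the notes name version 1.6.3. Strand was therefore not used in counting. Symbols were joined by gene ID for 54723 of 54752 genes, and sequences were taken from GENCODE vM21 and RefSeq.

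From these counts, CPM and RPKM were computed with TMM scaling (factors 0.949 to 1.05). The main test was the quasi-likelihood F-test of edgeR 4.0.16 (R 4.3.3, filterByExpr, minimum count 10, minimum total 15), which was tested on simulated data, with Benjamini-Hochberg adjustment. Single values were compared by exact permutation tests over 70 arrangements. Analyses of sequence used Biopython 1.88. No pair of libraries of a group agreed within sampling noise (chi-square per degree of freedom 4.64 to 183). Replicates were separate mice.

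The members and gene lists were chosen with earlier results of these data known. Named genes are the 9 members, list genes that were called or had a mean of at least 100 counts, the 1 or 2 most abundant markers of a list, the 3 genes most like each member, and the genes in and beside the clusters. Some genes of the lists are counted but not reported here by name. The alternatives were RLE size factors, library size alone, no filter, a minimum of 10 counts in each of the libraries, limma-voom and limma on log2(CPM + 1) (limma 3.58.1), DESeq2 1.42.0, thinned counts, the replicate number as a block, a pseudocount of 0.1, shares without division by length, and leaving out each mouse.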

Additional observations from a re-analysis of the deposited data

Results flagged for a closer look

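In 20 sets of 4 values (the 9 genes and their sum in each group), 3 held a mouse far from the other 3 by Dixon's test at the 95% level, where chance gives about 1 in 20. Ccl3 was at 0 CPM in sham mouse 3, against 0.114 to 0.125 CPM in the other sham mice, a gap of 2 counts. Ccl4 was at 0.455 CPM in sham mouse 1 and at 0 in the other sham mice. The summed level of the 9 genes was 5.91 CPM in sham mouse 1 and 3.62 to 3.93 CPM in the other sham mice.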

How the results depend on the processing

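The 7 tested members were positive and past both thresholds in all 114 alternative fits, with log2 fold changes of 1.98 or more. At least 10 counts in every library left 2 of the 9 genes in the test, both called, and moved the receptors called (Ccr and atypical) from 6 to 3 and the other CC chemokines called from 1 to 0, since fewer genes were tested. The other CC chemokines called numbered 2 without a filter, both higher, and 2 with DESeq2, of which Ccl21b was lower (-1.596, adjusted p = 0.0473). Leaving out 1 mouse gave 7 to 9 members, 1 to 2 other CC chemokines, 4 to 6 receptors and 11 to 14 regulators called. The count of 2 came without BCAS mouse 2, and that of 9 members likewise. A fit of Ccl7 without the filter gave an edgeR log2 fold change of 3.57, past both thresholds, which is another measure than its difference in mean log2(CPM + 0.5). Same-numbered mice did not deviate together (correlations of -0.11 to -0.003, against -0.12 to 0.14 for other numbers). With 4 mice per group this cannot exclude a pairing by number. With the replicate block, 7 members, 1 other CC chemokine, 5 receptors and 12 regulators were called. Pairs, shares and levels relative to microglia gave 0 adjusted p under 0.05 under the alternative tried for each. Library size alone raised the median of all genes by 0.09 (log2). Depth limits the size of the changes in Ccl2, Ccl3, Ccl4, Ccl7 and Ccl8, which had 0 to 9 counts summed over the sham libraries.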
